A study of Mus musculus with 4 samples.

Results

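SOX genes encode transcription factors that share a DNA-binding HMG box, and 10 of them, Sox2, Sox4, Sox5, Sox6, Sox7, Sox9, Sox10, Sox11, Sox13 and Sox17, were examined for open chromatin in mouse salivary gland organoids (mSGOs). They are 10 of the 20 SOX genes of the mouse and were matched by name to RefSeq genes of GRCm38.p6, among 21440 protein-coding genes of known strand. In all, 78 of the 32011 distinct open regions of the series lay at their 5′ ends, inside them or nearest to their 5′ ends. All regions came from bulk ATAC-seq, in which the Tn5 transposase cuts accessible DNA. The 4 samples were non-irradiated 7-day organoids from the submandibular gland of C57BL/6 mice, with 2 samples of passage 1 and 2 of passage 2. Within each passage, the labels name 1 mouse aged 12 weeks and 1 mouse aged 3 months. The study states that the organoids used for ATAC-seq came from 4 different mice. All organoids were grown in Matrigel in a medium with Wnt3a and R-spondin1 conditioned media, EGF, FGF2 and the ROCK inhibitor Y27632. The labels do not give the day of culture, which comes from the study's text.

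SOX factors bend DNA at short sequences and usually act together with partner factors, and the family is divided into groups by the sequence of the HMG box. Sox2 belongs to group B1 and is known from pluripotent and foregut progenitor cells, and Sox4 and Sox11 belong to group C. Sox5, Sox6 and Sox13 form group D, whose proteins lack a strong activation domain of their own. Sox9 and Sox10 belong to group E, and Sox7 and Sox17 to group F, which is best known from endothelium and endoderm. In salivary glands, Sox9 marks progenitors of the distal buds and ducts, Sox2 is needed to maintain acinar progenitors, and Sox10 is found in acinar, intercalated duct and myoepithelial cells. Sox9 is also a marker by which the study named a stem/progenitor population of mSGOs.

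The series holds 1 list of regions for all samples, so that no region has a value per sample, replicate spread is unknown, and passages and ages could not be compared. Sequencing depth is unknown as well, and a gene without a region was without a region at the threshold of this list, not shown to be closed. For each region, the list gives a fold of signal over the local background, a q-value at the summit and an IDR score, a measure of reproducibility between replicates that ran from 540 to 1000. A region midpoint lay within 1 kb of 38.3% of GRCm38.p6 protein-coding 5′ ends, of 5.03% of those of GRCm39 and of 3.77% of GRCm38.p6 ends moved by 50 kb, and the list was read as GRCm38. A region lay at the 5′ end of 7 of 10 epithelial markers, Cdh1, Epcam, Krt5 and Krt8 among them, but not of Krt18, Krt19 or Cldn7. The same held for 0 of 8 endothelial and 0 of 8 fibroblast markers and for 1 of 8 immune markers (Cd68). The part of cells other than epithelium in the regions described here was not tested.

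Open chromatin around the SOX genes was mostly distant from their 5′ ends and unevenly divided among them. In the whole list, 23756 of the 32011 regions were likewise distal, as defined below. A region lay within 1 kb of the 5′ end (midpoint to the outermost 5′ end) in 3 of the 10 genes, Sox4, Sox6 and Sox9, against 38.3% of all protein-coding genes. In 2 genes, Sox5 and Sox6, 12 regions lay inside the gene, against 39.5% of coding genes that held a region. Regions over 1 kb from any coding 5′ end are called distal here and were assigned to the gene with the nearest coding 5′ end. By this count, 8 of the 10 genes had distal regions, against 40.3% of coding genes. Over the whole SOX family the count was 10 of 20, and the 10 genes examined were chosen with earlier results of these data known. In all, 72 distal regions were assigned to the 10 genes. Sox9 had 23 of these (31.9%), Sox4 16, Sox2 10, Sox11 9, Sox5 6, Sox7 4, Sox6 3 and Sox10 1. Sox13 and Sox17 had no region of any of these kinds. With no values per sample, neighbours in this order cannot be said to differ.

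**Figure D1:**
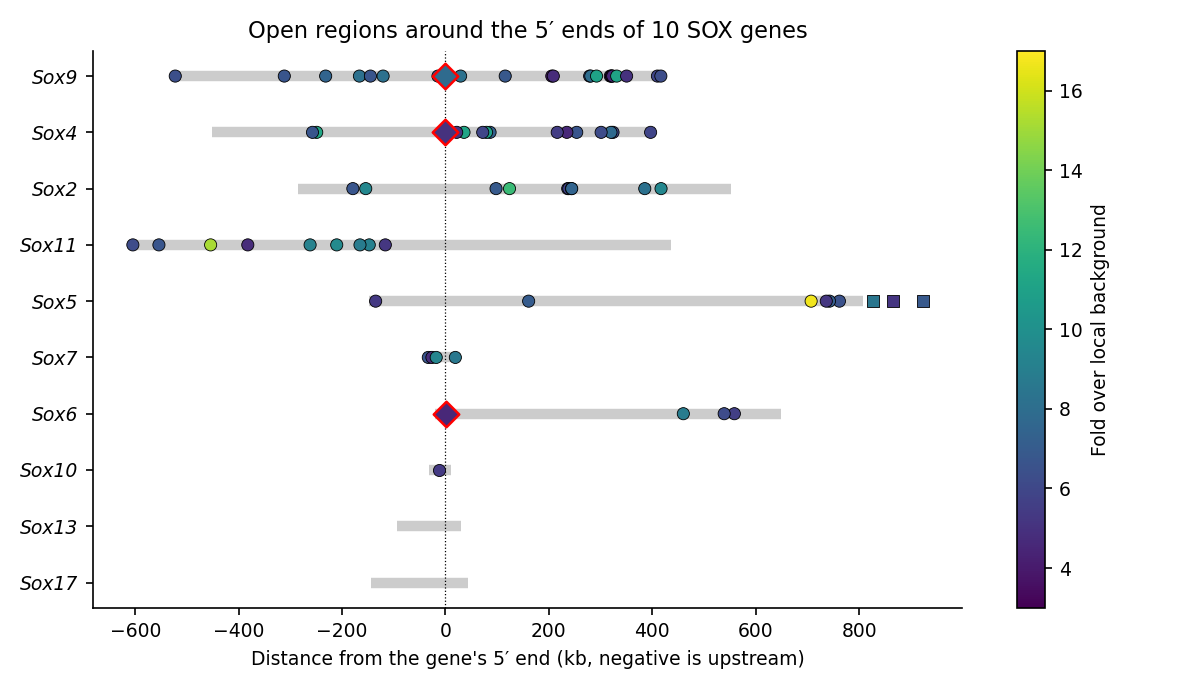
Open regions around the 5′ ends of the 10 SOX genes, with distance from the 5′ end in kb on the x axis (negative is upstream) and colour for the fold over the local background. Circles are distal regions, red-edged diamonds regions at the 5′ end, squares regions inside Sox5 nearest to another gene, and grey bars the sequence nearest to each 5′ end; Sox9 has 23 circles on both sides, Sox11 has all 9 upstream, and Sox13 and Sox17 have none.

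Most of these genes lie alone in long stretches of DNA, and a longer stretch can hold more assigned regions. The sequence nearest to the 5′ end, up to the midpoint towards the neighbouring coding 5′ ends, had a median of 753 kb over the 10 genes and of 50.4 kb over all coding genes. Sox2, Sox4, Sox5, Sox6, Sox9 and Sox11 each had more than 500 kb. Among all 1044 coding genes with such a stretch, 31.5% had a region at the 5′ end, and Sox4, Sox6 and Sox9 did among these 6. Of the 1044, 69.9% had a distal region and the median was 2, whereas the 6 SOX genes had a median of 9.5 and 67 regions together. Genes were therefore also ranked among the 427 or 428 genes of the same bin of stretch length, as a percentile in which ties share a rank. Sox9 stood at percentile 98.0, Sox7 at 95.8, Sox4 at 94.6, Sox2 at 87.6 and Sox11 at 84.2. Sox10 stood at 76.9, Sox5 at 75.8, Sox6 at 57.5, Sox13 at 21.0 and Sox17 at 17.9. These ranks describe 1 list and carry no error.

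**Figure D2:**
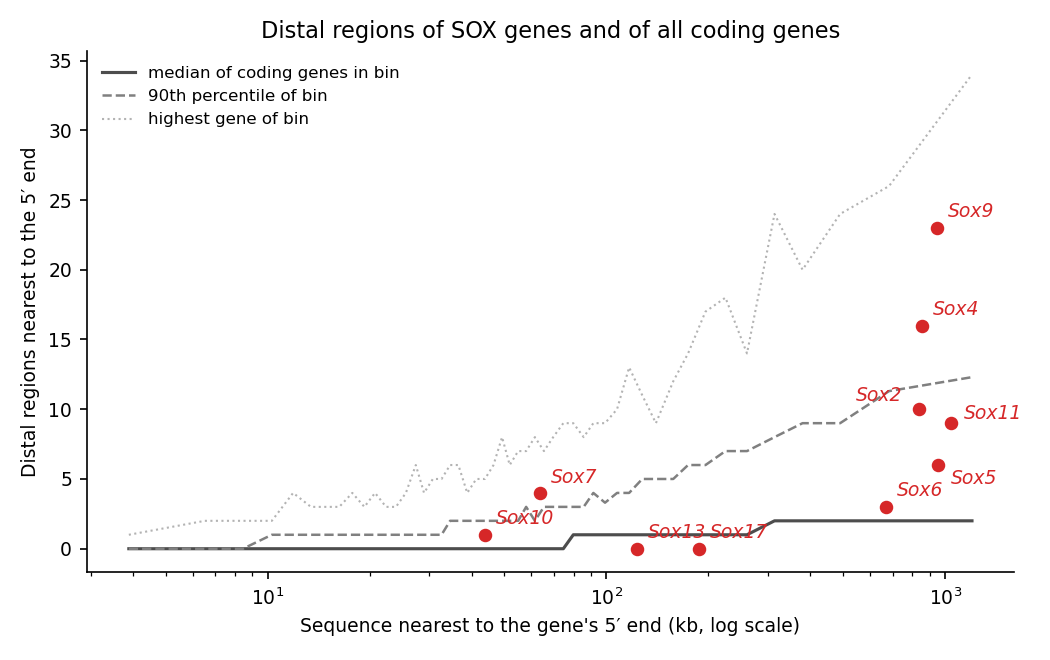
Distal regions nearest to the 5′ end (y axis, count) against the sequence nearest to the 5′ end (x axis, kb, log scale), with SOX genes as red points and lines for the median, the 90th percentile and the highest gene in each of 50 bins of coding genes. Sox9, Sox4 and Sox7 lie above the 90th percentile line, and Sox13 and Sox17 lie at 0.

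The 3 regions at SOX 5′ ends differed in strength. At Sox9, the region chr11:112781984-112782406 covered the 5′ end, with its midpoint 15 bp upstream, a fold of 7.83 and an IDR score of 1000. At Sox4, the region chr13:28953561-28953946 had its midpoint 54 bp upstream of the 5′ end, with a fold of 5.02 and a score of 949. At Sox6, the region chr7:116040150-116040481 lay 461 bp inside the gene, with a fold of 4.58 and a score of 548. The median fold of the 8178 regions at coding 5′ ends was 7.90, and the 3 regions stood at percentiles 48.8, 9.89 and 5.15 among them. Of the 3, the Sox9 region alone remained in a stricter list, the 16006 regions with the lowest q-values, and it alone had an IDR score of 1000. At the other 7 genes, the nearest region of any kind was 12.6 kb from the 5′ end of Sox10, 17.8 kb from Sox7, 97.8 kb from Sox2, 116 kb from Sox11, 135 kb from Sox5, 147 kb from Sox13 and 288 kb from Sox17. No region lay within 100 kb of the 5′ end in 4 of the 10 genes (Sox5, Sox11, Sox13 and Sox17), against 17.5% of coding genes. This share was not matched for stretch length, which was 123 to 1042 kb in these 4 genes and had a median of 50.4 kb over all coding genes.

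RefSeq sequences of start sites (GRCm38.p6) were matched for 6 of the 10 genes, Sox2, Sox4, Sox5, Sox6, Sox11 and Sox13. Of these, Sox5 and Sox6 have start sites in the table that lie over 1 kb from any region, at inner positions of long genes, and are described apart. The 250 bases before the start site are printed for Sox4, whose open region covers 247 of them, and for Sox2 and Sox11, where no region lay near. Capitals mark CCAAT on either strand (ATTGG on the other), the core of the site bound by NF-Y, a factor of many start sites.

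Sox4, chr13:28953700-28953949, minus strand: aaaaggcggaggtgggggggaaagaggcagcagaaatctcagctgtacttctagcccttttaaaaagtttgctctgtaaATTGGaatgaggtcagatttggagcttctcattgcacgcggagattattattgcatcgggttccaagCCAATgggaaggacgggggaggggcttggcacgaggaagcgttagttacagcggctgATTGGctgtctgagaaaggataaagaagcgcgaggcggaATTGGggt
Sox2, chr3:34649745-34649994, plus strand: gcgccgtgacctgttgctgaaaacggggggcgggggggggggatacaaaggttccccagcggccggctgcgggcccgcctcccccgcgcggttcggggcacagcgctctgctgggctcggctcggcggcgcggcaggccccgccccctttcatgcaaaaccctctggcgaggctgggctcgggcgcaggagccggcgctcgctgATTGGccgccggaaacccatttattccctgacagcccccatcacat
Sox11, chr12:27342719-27342968, minus strand: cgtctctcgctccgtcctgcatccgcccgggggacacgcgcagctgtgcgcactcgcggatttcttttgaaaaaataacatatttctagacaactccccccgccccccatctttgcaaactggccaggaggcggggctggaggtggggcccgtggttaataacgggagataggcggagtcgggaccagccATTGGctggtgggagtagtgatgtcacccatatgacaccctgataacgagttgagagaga

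The Sox4 stretch held CCAAT 4 times, at 171, 104, 47 and 8 bases before the start site (counted to the first marked base), and 276 of 32851 RefSeq promoters of this length (0.840%) held it 4 or more times. CCAAT occurred 3 or more times in 5.74% of promoters with a region within 1 kb, as at Sox4, and in 1.47% of those without one. The Sox2 and Sox11 stretches each held it 1 time, at 46 and 60 bases, and 33.8% of all promoters held it at least 1 time. Sox13 held none. Sox4 had 50.8% G or C and 11 CpG, beside 72.0% and 27 for Sox2, 58.0% and 17 for Sox11 and 72.4% and 31 for Sox13. Over all promoters the median GC content was 52.4%, and the median was 60.4% in the 10161 with a region within 1 kb and 49.2% in the 22690 without one. The median number of CpG was 6 over all promoters, 17 in those with a region and 3 in those without one. Sox2 and Sox13, which had no region there, exceeded all of these medians. Sox4, which had a region, lay below the GC and CpG medians of promoters with a region. The letters ACAAT, a SOX core, were absent from the 250 bases of Sox2, Sox4, Sox11 and Sox13 on both strands and present in 27.7% of all promoters. GGGCGG, the core of SP and KLF sites, occurred 2 times at Sox2, 2 times at Sox11, at 0 sites in Sox4 and Sox13, and in 32.7% of promoters. ACAAAG, a core of SOX and TCF sites, occurred 1 time at Sox2, at 0 sites in the other 3 genes, and in 16.5% of promoters. Both strands were searched. ACAAT and CCAAT share the letters CAAT but cannot match at the same position, and a match says nothing of binding. The 1 start site of Sox5 had 39.6% G or C, 3 CpG and ACAAT 1 time, and held no CCAAT. The 6 start sites of Sox6 ran from 34% to 60.8% G or C and from 1 to 10 CpG, and CCAAT occurred 3 times at 1 of them and 1 time at another. ACAAT occurred 2, 2 and 3 times at 3 of the Sox6 sites, and ACAAAG was present at 5 of the 6.

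Sox9, which encodes a factor of progenitor cells in many epithelia and of cartilage, had regions on both sides, the outermost near the ends of its stretch. Of its 23 distal regions, 7 lay upstream and 16 downstream, from 6.29 to 523 kb away, with a median distance of 281 kb. The stretch reached 947 kb, with the coding neighbours Gm11677 upstream and Sstr2 downstream. Among all coding genes, 11 had more distal regions and 3 had as many. The 5 genes whose stretch was closest in length, Dusp26, Chordc1, Gm6760, Ryr2 and Mgat4c, had between 0 and 2.

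The regions of Sox9 were not evenly spread. With regions joined when the next lay within 50 kb, they formed 9 groups, of which the largest held 9 regions from 279 to 350 kb downstream, over 71.4 kb. The downstream neighbours of that group, 2 regions at 410 and 417 kb, lay like it inside the noncoding gene 2610035D17Rik, which held 11 of the 23 regions. A group of 3 regions lay 121 to 166 kb upstream, and another 3 lay around the gene, at 14.5 kb upstream and 6.29 and 29.3 kb downstream. Within 100 kb of the 5′ end, Sox9 had 4 regions, the one at the 5′ end included. By q-value, the 3 strongest distal regions were all in the downstream group, chr11:113113103-113113691 (331 kb, fold 11.1), chr11:113074101-113074718 (292 kb, fold 11.0) and chr11:113063062-113063550 (281 kb, fold 7.96). The next were chr11:112811209-112811863 (29.3 kb downstream, fold 8.22) and chr11:113060999-113061315 (279 kb downstream, fold 6.19). The same group also held weak regions, with a median fold of 5.00 and a lowest value of 3.68, which was the lowest of all 78 regions.

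The distal regions of Sox9 were many rather than strong. Their fold ran from 3.68 to 11.1 with a median of 6.38 (quartiles 4.84 and 7.71), against 6.87 (quartiles 5.58 and 8.92) over all 23756 distal regions, and 7 of the 23 exceeded that median. Several summits were listed in 18 of them. In the stricter list, 8 of the 23 (34.8%) remained, against 45.9% of all distal regions.

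Sox2 and Sox10, the factors tied to acinar and myoepithelial cells, differed from Sox9 in that no region lay at the 5′ end. Sox2 had 10 distal regions, 2 upstream at 154 and 179 kb and 8 downstream from 97.8 to 417 kb. None lay closer, so that the 97.8 kb on either side of Sox2 held no region. The downstream regions formed groups of 2, 4 and 2, with 4 of them within 7.67 kb at 236 to 244 kb. The strongest, chr3:34773634-34774121, lay 124 kb downstream with a fold of 12.5, at percentile 93.5 of distal regions. The fold of the 10 regions ran from 5.74 to 12.5 with a median of 7.83, and 7 exceeded the median of all distal regions. Thus Sox2 had fewer distal regions than Sox9, 10 against 23, over a stretch of 836 kb, but 5 of 10 remained in the stricter list against 8 of 23, and 6 against 7 had an IDR score of 1000.

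Sox10 had 1 distal region, chr15:79176864-79177260, which lay 12.6 kb upstream with a fold of 5.40 and an IDR score of 594, and which was absent from the stricter list. The gene lies close to others, Pick1 and Polr2f, and the sequence nearest to its 5′ end was 43.9 kb. Per length, 1 region in that stretch came to 22.8 distal regions per Mb, beside 24.3 for Sox9, 12.0 for Sox2 and 8.95 over all coding genes. Within 100 kb of the 5′ end, Sox10 had 5 regions and Sox9 4, although 4 of the 5 at Sox10 were nearest to other coding 5′ ends. Sox9 thus exceeded Sox10 by 22 in number and by 1.53 per Mb (8.45 in the stricter list), but not within 100 kb, and the region at its 5′ end had no counterpart at Sox10.

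Markers of the same cells were set beside these genes. Among 11 acinar markers, the gene of the transcription factor Etv1 alone had a region at the 5′ end (1 of 11), and 4 had distal regions, most for Slc12a2 with 5 and Etv1 with 4, where the shares over all coding genes were 38.3% and 40.3%. The 5′ ends of 3 of 10 myoepithelial markers had a region, which is near the 38.3% of all coding genes. The 3 were the caldesmon gene Cald1, the basal keratin gene Krt14 and the oxytocin receptor gene Oxtr, while Acta2, Myh11 and Cnn1 had none there. Among 7 stem/progenitor markers other than Sox9, 4 carried a 5′ region and 6 had distal regions, most for Cd44 and Trp63 with 10 each. Trp63 and Ascl3 had no region at the 5′ end, and Kit had none there, inside the gene or distal. Krt14 also marks basal duct cells, and bulk data do not tell fewer open cells from weaker opening per cell.

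Sox4 and Sox11, group C genes of progenitor cells, are both isolated, but their regions were placed differently. Sox4 had 16 distal regions, 4 upstream and 12 downstream, from 4.81 to 397 kb away, with 7 of them between 6.03 kb upstream and 86.3 kb downstream. Of the 16, 10 lay in the noncoding gene 2610307P16Rik and 2 inside the coding gene Cdkal1, at 249 and 257 kb upstream. The strongest by q-value, chr13:28917404-28918245, lay 35.9 kb downstream with a fold of 11.2. Sox4 had 8 regions within 100 kb of its 5′ end, against 4 for Sox9 and 1 for Sox2. Sox11 had 9 distal regions, all 9 upstream and between 116 and 605 kb away, and none on the downstream side. Its strongest, chr12:27796607-27797216, lay 454 kb upstream with a fold of 15.2, at percentile 97.8 of distal regions. The median fold was 8.83 for Sox11 and 6.27 for Sox4, and 5 of 9 and 5 of 16 remained in the stricter list.

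The group D genes Sox5 and Sox6, known from cartilage and glial development, are very long genes, and their regions lay deep inside them. Sox5 spans 953863 bp and held 8 regions, none within 100 kb of the 5′ end. Of these, 7 lay between 707 and 924 kb downstream of the 5′ end, in the part of the gene far from the outermost start, and 3 of the 8 were nearest to the 5′ end of the neighbour Etnk1. The region chr6:144074810-144075234, at 707 kb, had a fold of 16.7, the highest of all 78 regions and at percentile 99.0 of distal regions. At the 1 other start site of Sox5 in the RefSeq table, the nearest region lay 7.57 kb away. Sox6 held 4 regions, the weak one near its outermost 5′ end and 3 from 460 to 559 kb downstream, of which chr7:115580518-115580866 was the strongest with a fold of 8.83. At the 6 start sites of Sox6 in the table, the nearest region lay between 1.57 and 221 kb away. Sox13 had no region, and its 123 kb stretch held none.

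The group F genes Sox7 and Sox17 differed from one another. Sox7 had 4 distal regions, 3 upstream and 1 downstream, all within 33.2 kb of its 5′ end, in a stretch of 63.8 kb. The strongest, chr14:63925657-63926076, lay 17.8 kb upstream with a fold of 9.35, and the region 19.2 kb downstream had a fold of 8.59. The other 2, with folds of 4.79 and 6.68, lay inside the neighbouring gene Pinx1. Sox7 thus had 62.7 distal regions per Mb, the most of the 10 genes, and 2 of the 4 remained in the stricter list. Sox17 had no region within 288 kb of its 5′ end. Among the 8 endothelial markers, all without a region at the 5′ end, 6 had distal regions, Cdh5 with 7, as did 6 of 8 fibroblast markers and 40.3% of all coding genes.

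**Figure D3:**
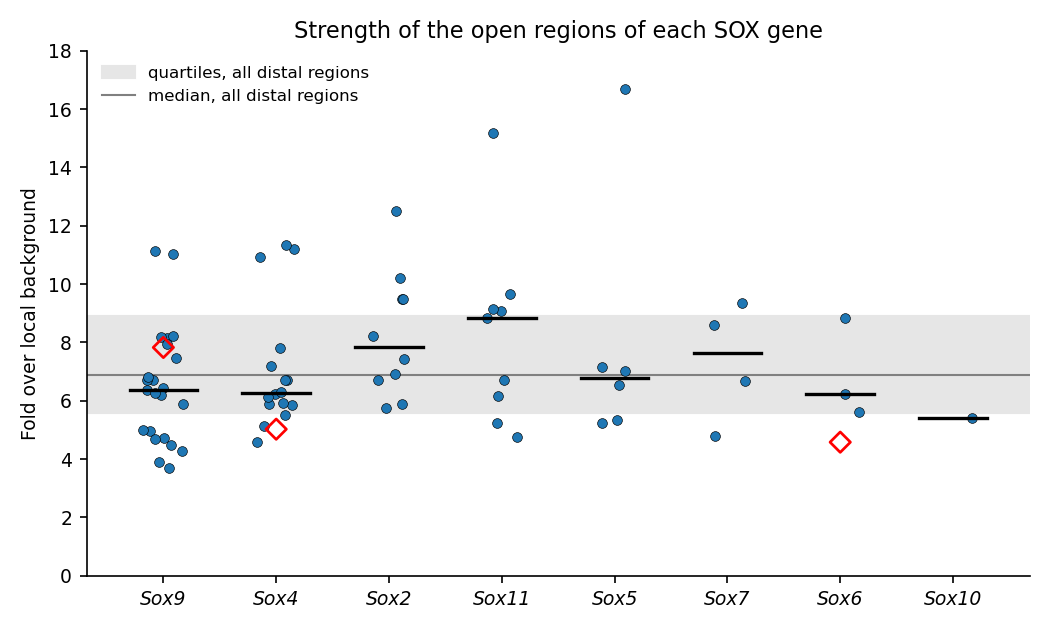
Fold over the local background (y axis) of each distal region (blue points, black bar at the median) and each 5′ end region (red diamonds) of the 8 SOX genes with regions; the grey band and line are the quartiles and median of all 23756 distal regions. Sox2, Sox7 and Sox11 have medians above the line, and Sox9 and Sox4 have more points than any other gene but medians below it.

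In strength, the distal regions of the SOX genes together resembled other distal regions. Their median fold was 6.70 (quartiles 5.71 and 8.32) against 6.87 over all distal regions, and their median width 405 bp against 388 bp. An IDR score of 1000 was given to 26 of the 72 (36.1%) and to 40.9% of all distal regions. Counting 5′ ends of all gene types, 65 of the 72 regions were nearer to that of another gene, 21 of 23 at Sox9 and all 10 at Sox2, against 55.2% of all distal regions, and 1 of the 72, near Sox4, lay within 1 kb of such an end, against 4.72% of all distal regions. Noncoding genes contained 28 of the 72, of which 12 were at Sox4 and 11 at Sox9, and the share over all distal regions was not computed. The nearest 5′ end need not be that of the gene on which a region acts.

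**Figure D4:**
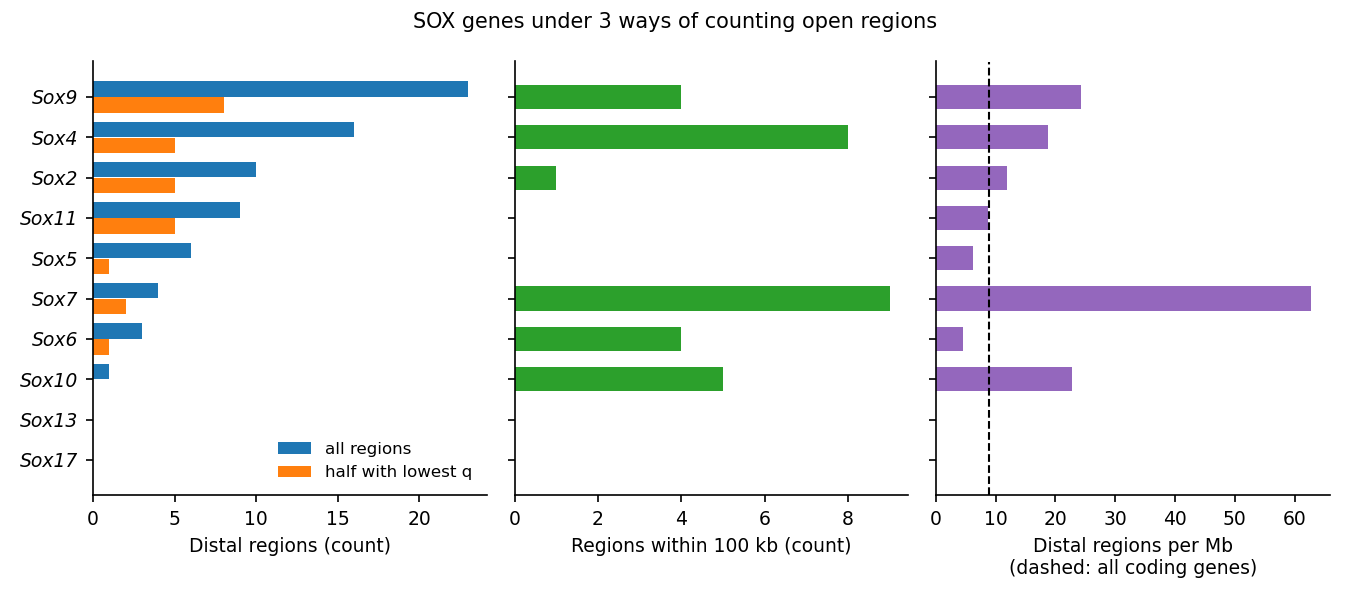
The 10 SOX genes under 3 ways of counting, as bars from 0: distal regions in the whole list and in the stricter list of 16006 regions (left), all regions within 100 kb of the 5′ end (middle), and distal regions per Mb of sequence nearest to the 5′ end (right, dashed line 8.95 for all coding genes). Sox9 leads by number, with 23 and 8, and Sox7 leads by regions within 100 kb, with 9, and per Mb, with 62.7.

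Which SOX gene led depended on the count. Sox9 had most distal regions in the whole list and in the stricter list, where it had 8, Sox2, Sox4 and Sox11 5 each, Sox7 2, Sox5 and Sox6 1 each and Sox10 0. With 5′ ends of all gene types, Sox7 led with 4 and Sox9 had 2. Within 100 kb, Sox7 had 9 regions, Sox4 8, Sox10 5, Sox9 and Sox6 4 each and Sox2 1, but 5 of the 9 at Sox7, 4 of the 5 at Sox10 and 3 of the 4 at Sox6 were nearest to other coding 5′ ends. The difference of Sox9 minus Sox7 in distal regions per Mb was -38.4, and -22.9 in the stricter list. Per Mb, Sox7 (62.7) came before Sox9 (24.3), Sox10 (22.8, from 1 region), Sox4 (18.7) and Sox2 (12.0), which all exceeded the 8.95 over all coding genes. That value was not matched for stretch length.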

How the data were processed

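ATAC-seq libraries from 4 mSGO samples were sequenced as 75 bp paired-end reads. The authors ran the ENCODE ATAC-seq pipeline from reads to peaks and made 1 consensus from all organoid samples, which the deposited list was taken to be, although neither its lines nor its distinct regions match the number of peaks that the study gives. The submitters' processing notes name GRCm39 and HOMER without a role; pipeline version and filters are not given in the sources used here. The deposited values are an IDR score per region, the summit position with its −log10 q-value, and a fold (ratio) relative to local background; none belongs to 1 sample.

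The 69545 lines were joined into 32011 distinct regions, each with the values of its strongest summit by q-value. Gene positions came from RefSeq GRCm38.p6, whose gene coordinates are not printed apart from start-site sequences. Strand came from the RefSeq start-site table of the same build (17492 coding genes) or, by gene name and chromosome, from GENCODE M39 (3948); where both gave a strand they were the same in 99.4% of 22110 genes. Coding genes without strand were left out, and percentiles used 50 bins of stretch length. The assignment was tested on simulated positions. Sequences of the open regions were not analysed here. The 10 genes, the gene lists and the counts were chosen with earlier results of these data known, the motif shown in capitals after its matches were counted among 9. Named regions are those at 5′ ends, the strongest distal region of each gene and the 5 strongest of Sox9 by q-value; named genes are the members, list genes by number of distal regions and the 5 closest to Sox9 in stretch, and other names were chosen after values were seen. Analyses used Python 3.11.15, numpy 2.4.6, pandas 2.3.3 and matplotlib 3.10.9.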

Additional observations from a re-analysis of the deposited data

How the results depend on the processing

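No sample could be left out, and unknown depth limits what an absent region shows. No comparison of passages or ages was possible because the list pools all samples. In the 16006 regions with the lowest q-values, SOX genes with a region at the 5′ end fell from 3 to 1, distal regions of Sox9 from 23 to 8, those of all 10 genes from 72 to 27 and regions inside genes from 12 to 3. Sox9 then exceeded Sox2 by 3 in place of 13 and Sox10 by 8 in place of 22. With an IDR score of 1000, the values were 1, 7, 26, 3, 1 and 7 in the same order, and with every line counted the last 5 were 56, 149, 21, 38 and 55. These lists are smaller or larger by construction. With 5′ ends of all gene types, distal regions numbered 2 for Sox9 and 7 for all 10 genes, and Sox9 exceeded Sox2 and Sox10 by 2 each, since noncoding genes then took most regions. Within 100 kb of the 5′ end, a count added after the data were seen, Sox9 had 4 and the 10 genes 31, Sox9 exceeded Sox2 by 3, and the difference from Sox10 turned to -1. The other distances, the summit position and strand from GENCODE alone (added later) moved no count, and the percentile of Sox9 ran from 93.1 to 99.3.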

Other observations

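The other 10 genes of the mouse SOX family, Sox1, Sox3, Sox8, Sox12, Sox14, Sox15, Sox18, Sox21, Sox30 and Sry, had few regions. A region lay at the 5′ end in 2 of them, beside 38.3% of coding genes. At Sox21, a group B2 gene, chr14:118236567-118237265 covered the 5′ end over 699 bp, with 4 summits, a fold of 5.46 and an IDR score of 591. At Sox12, a group C gene, chr2:152398812-152399219 lay 969 bp upstream with a fold of 4.82. Both stood low among regions at coding 5′ ends, at percentiles 16.0 and 7.50. Distal regions numbered 1 at Sox12, with a fold of 9.52, and 1 at Sox1, so that 2 of the 10 genes had any, beside 40.3% of coding genes. The median stretch of the 10 genes was 55.1 kb. In the bin of coding genes with a median stretch of 54.9 kb, the median was 0 distal regions.

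Among 17 genes of partners and signals known around SOX factors in gland development, 8 had a region at the 5′ end and 13 had distal regions, beside 38.3% and 40.3% of all coding genes. The Notch target Hes1 and the repressor gene Zeb2 had 17 each, and the FGF receptor gene Fgfr2, the FGF antagonist gene Spry2 and the Wnt effector gene Tcf7l2 had 12 each. Among genes of like stretch, Hes1 ranked at percentile 99.6 and Zeb2, with 1943 kb, at 95.4.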
